A study of Mus musculus with 12 samples.

Results

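Many genes of the epidermal differentiation complex encode proteins that keratinocytes make as they leave the basal layer and harden into the barrier of the skin. The members were chosen by symbol, as genes whose names begin with Lce, Sprr or S100a together with Crct1, Lor, Ivl, Flg, Flg2, Hrnr, Rptn and Tchh, through array probe sets that the platform annotation maps to 1 symbol. This gave 43 genes of 18193 measured, through 54 probe sets, and Flg2 was not analysed here. All 43 lie on chromosome 3 in the RefSeq gene table used for names, and Sprr2j-ps is a transcribed pseudogene. By family they were 12 S100 genes, 9 small proline-rich (Sprr) genes, 15 late cornified envelope (Lce) genes, 4 fused S100 genes (Flg, Hrnr, Rptn and Tchh) and the 3 other envelope genes Lor, Ivl and Crct1.

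The cornified envelope is a shell of cross-linked protein that replaces the plasma membrane of the outermost skin cells. Involucrin (Ivl) forms a scaffold under the membrane, loricrin (Lor) is its main filling, and Sprr and Lce proteins are cross-linked into it by transglutaminases. Fused S100 proteins bind keratin, filaggrin (Flg) in the epidermis and trichohyalin (Tchh) in the inner root sheath and medulla of the hair, while most S100 proteins are small calcium-binding signalling partners.

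RNA came from cells sorted out of the back skin of female mice aged 72 to 74 days, of mixed C57BL/6 and CD1 background, which were TßRII-Het or TßRII-cKO, a control and a conditional knockout of the TGF-beta receptor gene Tgfbr2. Sorting used the Rosa26-YFP reporter with P-cadherin and CD34, so every fraction holds cells that had the reporter switched on, and the labels do not name the driver of the recombinase. The hair germ (HG) and the bulge are the stem cell compartments of the resting follicle (hair follicle stem cells, HFSCs), and the third fraction was total skin keratinocytes. Each genotype gave each fraction in set 1 and in set 2, which made 12 arrays: in set 1 the HG and bulge cells of both genotypes are labelled quiescent, and in set 2 those of TßRII-Het are labelled activated and those of TßRII-cKO aberrantly quiescent. This made 10 groups: 8 with a single array, and total keratinocytes with 2 arrays per genotype. Since the activated label occurs in set 2 alone, activation and any other difference between the sets cannot be told apart. Nothing states that arrays came from separate mice, so the p-values speak of array-to-array spread, which may be technical in part.

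Values are the logarithm to base 2 of the deposited array signal, with signals under 20.7 (the pooled 25th percentile) raised to that floor, which is 4.37 on the log2 scale. A gene was tested where its signal passed 84.7, the pooled median (log2 6.40), on at least 2 arrays of a fit. Median signal per array lay between 64.1 and 109. Cd34 was 14.42 to 14.79 on bulge arrays and 7.65 to 8.69 on HG arrays, and Cdh3, which encodes P-cadherin, was 9.22 to 10.61 on HG arrays and 8.02 to 9.10 on bulge arrays, so the sort markers followed the labels. Tgfbr2 was 10.35 to 12.39 on TßRII-Het arrays and 11.31 to 12.14 on TßRII-cKO arrays. The labels do not say which part was deleted, so this probe set, which may lie outside it, does not check the genotypes. Milk protein genes stood out on the cKO total keratinocyte array of set 1, where Csn2 was 13.46 and on the other arrays at most 7.80. With that array left out, HG against bulge lost S100a10 and kept 3 called members, where 20.9% of all genes were called. The set comparison lost Tchh and S100a3 and kept 5, where 1.32% of all genes were called.

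Promoters of 6 members whose values carry the comparisons are shown for reference, 250 bases before the start of transcription, from RefSeq (GRCm38.p6, written on the strand of the gene). Lor, Lce1m and Flg were lower in set 2, and Tchh was higher in set 2. Sprr1a was highest in total keratinocytes, and Ivl was lower in bulge than in total keratinocytes. Capitals mark TGANTCA (its own reverse complement), a looser form of the AP-1 element TGAGTCA or TGACTCA, and TATAAA, the core of the TATA box (searched on both strands).
Lor, chr3:92083143-92083392, minus strand: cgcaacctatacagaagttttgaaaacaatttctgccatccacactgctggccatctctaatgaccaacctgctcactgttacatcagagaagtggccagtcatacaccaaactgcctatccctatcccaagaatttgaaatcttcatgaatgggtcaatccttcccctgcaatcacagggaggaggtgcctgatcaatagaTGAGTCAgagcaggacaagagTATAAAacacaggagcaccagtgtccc
Lce1m, chr3:93019062-93019311, minus strand: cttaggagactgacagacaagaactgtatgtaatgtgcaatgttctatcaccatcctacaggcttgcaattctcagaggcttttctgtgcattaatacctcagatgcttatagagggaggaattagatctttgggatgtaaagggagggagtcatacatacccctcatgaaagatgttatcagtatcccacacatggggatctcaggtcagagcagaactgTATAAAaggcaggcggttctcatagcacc
Flg, chr3:93273296-93273545, plus strand: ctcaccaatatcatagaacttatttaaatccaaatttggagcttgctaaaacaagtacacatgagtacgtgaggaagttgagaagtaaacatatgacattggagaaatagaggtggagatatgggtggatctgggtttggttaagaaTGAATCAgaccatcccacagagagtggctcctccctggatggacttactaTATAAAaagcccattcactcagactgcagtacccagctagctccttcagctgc
Ivl, chr3:92573736-92573985, minus strand: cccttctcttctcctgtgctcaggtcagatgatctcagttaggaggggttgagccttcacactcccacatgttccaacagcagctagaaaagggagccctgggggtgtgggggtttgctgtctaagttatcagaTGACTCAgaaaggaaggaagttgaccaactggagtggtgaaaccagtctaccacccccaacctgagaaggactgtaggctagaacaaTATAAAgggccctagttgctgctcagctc
Sprr1a, chr3:92485882-92486131, minus strand: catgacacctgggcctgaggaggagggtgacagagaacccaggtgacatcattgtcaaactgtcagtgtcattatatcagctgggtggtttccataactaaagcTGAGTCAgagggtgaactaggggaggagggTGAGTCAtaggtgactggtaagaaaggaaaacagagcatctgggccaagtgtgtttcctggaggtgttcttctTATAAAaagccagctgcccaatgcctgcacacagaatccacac
Tchh, chr3:93442080-93442329, plus strand: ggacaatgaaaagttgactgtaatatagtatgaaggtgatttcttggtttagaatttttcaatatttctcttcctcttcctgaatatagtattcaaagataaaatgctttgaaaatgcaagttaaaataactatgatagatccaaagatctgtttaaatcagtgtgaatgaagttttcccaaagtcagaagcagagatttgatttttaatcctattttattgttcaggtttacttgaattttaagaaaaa

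A TGANTCA match began 48 bases before the start in Lor, 103 in Flg, 116 in Ivl, and 146 and 116 in Sprr1a. The match in Flg reads TGAATCA, which is not the stricter AP-1 element. Neither Lce1m nor Tchh held one in this window. TATAAA stood 27 bases before the start in Lor, 29 in Lce1m and in Ivl, 43 in Sprr1a and 53 in Flg. The table holds 42 promoters of 38 members. Of these 42 promoters, 13 held TGANTCA and 19 held TATAAA, where 6.75% and 12.4% of all 32851 promoters of this length did. No promoter was listed for Crct1, Lce1f, S100a10, S100a14 and Sprr2j-ps. These matches describe letters and not binding.

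Signal was very uneven across the complex. Of the 43 members, 24 passed the filter in the fits of 12 arrays, and 19 did not. The tested members were 9 of 12 S100 genes, 8 of 15 Lce genes, 1 of 9 Sprr genes (Sprr1a), 3 of 4 fused S100 genes, and Lor, Ivl and Crct1. S100a7l2, Sprr2i and Lce3a were at the floor on all 12 arrays. Sprr1b, which encodes a close relative of Sprr1a, lay between 4.37 and 6.18 with a median of 4.37. Rptn (repetin, a fused S100 protein) lay between 4.37 and 6.28 with a median of 5.72. The main probe sets of 11 members, most of the tested Lce genes among them, are of the kinds that can bind near-identical family members, so a value printed for such a gene may include its relatives.

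**Figure D1:**
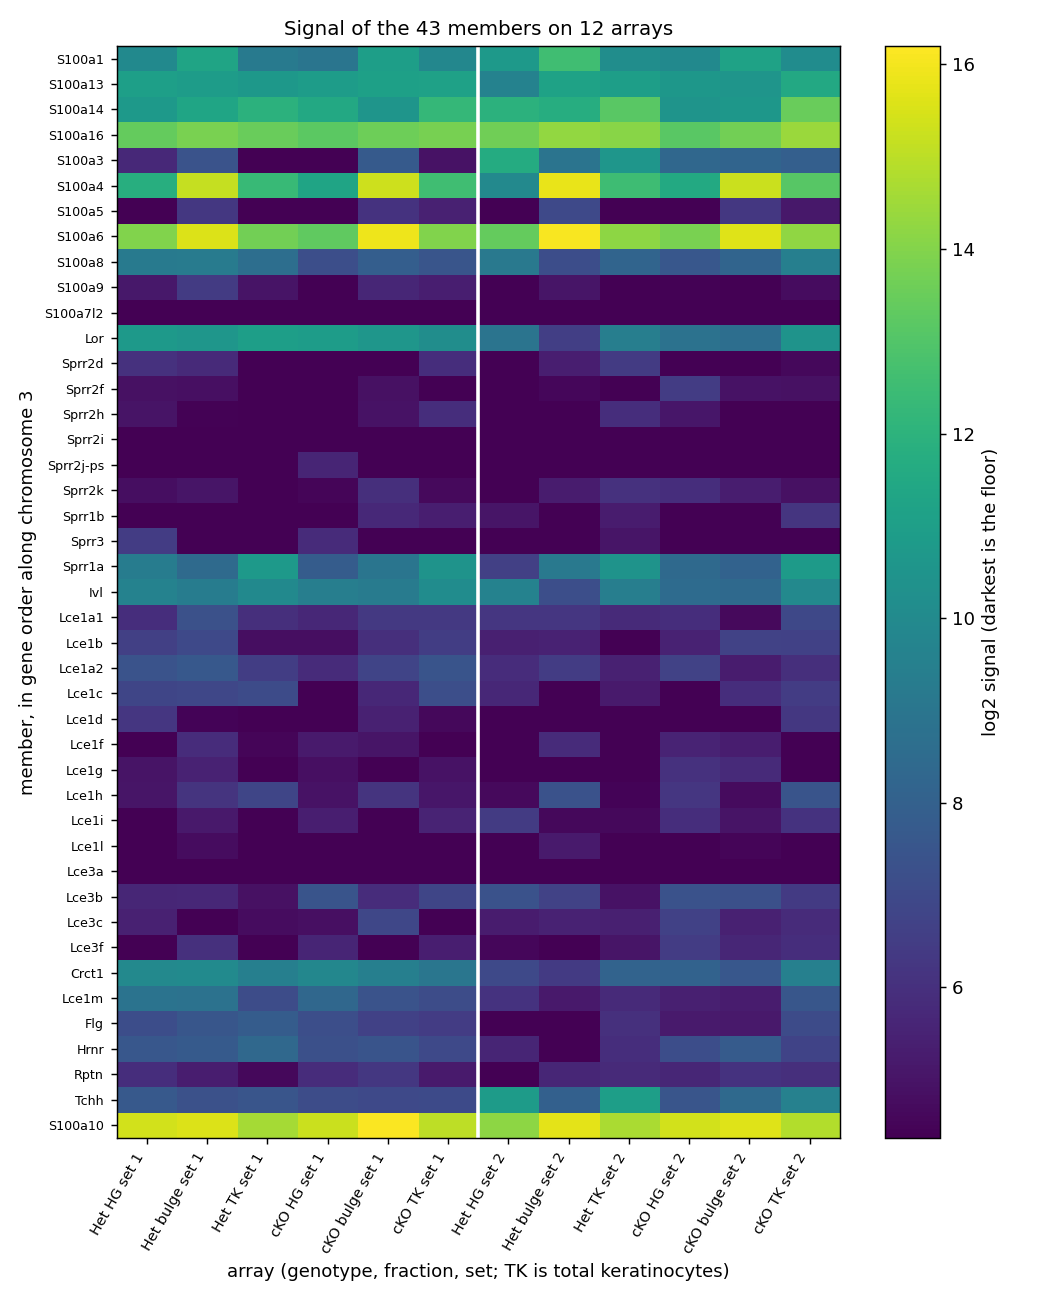
Log2 signal of the 43 members (rows, in gene order along chromosome 3) on the 12 arrays (columns, 6 of set 1 and then 6 of set 2), with the colour scale starting at the floor of 4.37. The rows of S100a13, S100a14, S100a16, S100a4 and S100a6 near the top, and those of Lor, Sprr1a, Ivl, Crct1 and S100a10, are bright on most arrays, while the Sprr2 and most Lce rows are near the floor. The rows of Crct1, Lce1m and Flg darken in the HG and bulge columns of set 2, and that of Hrnr in the Het ones of these.

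The first question was which members differ between stem cell fractions and total keratinocytes. Sprr1a, a cross-bridging protein of the envelope, was lower in both stem cell fractions, as was S100a14, an epithelial S100 protein. S100a4, S100a6, S100a1 and S100a10 were highest in the bulge. Most envelope genes did not pass the test between fractions, and Lor, Crct1, Flg and Lce1m overlapped between them. Both comparisons with total keratinocytes use the same 4 total keratinocyte arrays.

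In HG against total keratinocytes, 3 of 24 tested members passed an adjusted p of 0.05 (limma with Benjamini-Hochberg adjustment over all genes tested), each of them lower, where 10.8% of the 12749 genes tested passed. The median difference of the tested members was -0.35 against 0.04 for all genes. In bulge against total keratinocytes 7 of 24 passed, 4 higher and 3 lower, where 24.2% of all genes did, with medians of -0.14 and 0.05. In HG against bulge 4 of 24 passed, all lower in HG, where 23.5% of all genes did. These shares are close to those of all genes, so the results below are those of the genes named.

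Sprr1a gave 9.34, 7.81, 6.63 and 8.42 on the 4 HG arrays (Het and cKO of set 1, then of set 2), 8.47, 8.96, 9.13 and 8.09 on bulge arrays and 10.73, 10.45, 10.43 and 10.82 on total keratinocyte arrays. Every total keratinocyte array was above every stem cell array. The mean was 8.05 ± 1.14 (SD, n = 4) in HG, 8.66 ± 0.47 in bulge and 10.61 ± 0.20 in total keratinocytes. Sprr1a was 5.90-fold lower in HG (log2 difference -2.56, SE 0.41, adjusted p = 0.0043 with limma) and 3.84-fold lower in bulge (-1.94, SE 0.41, adjusted p = 0.0046 with limma).

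Involucrin followed in the bulge. Ivl gave 9.33, 9.30, 7.22 and 8.42 on bulge arrays, against 9.98, 10.14, 9.42 and 9.94 on total keratinocyte arrays, with no overlap. The HG arrays, at 9.61, 9.42, 9.62 and 8.50, overlapped with total keratinocytes. Ivl was 2.46-fold lower in bulge (-1.30, SE 0.33, adjusted p = 0.0130 with limma), while in HG its difference of -0.58 had an adjusted p of 0.28. The bulge call was lost when the cKO total keratinocyte array of set 2 was left out (-1.12, adjusted p = 0.0575 with limma). A dimmer second probe set of Ivl read 4.37, 4.91, 4.37 and 4.37 on bulge arrays, against 7.44, 6.78, 6.44 and 7.35 on total keratinocyte arrays. Its difference was -2.50, with the floor standing in on 3 of 4 bulge arrays. In HG, Ivl passed with the Het HG array of set 2 left out (-0.99, adjusted p = 0.0355). Lor, at -1.17 in bulge against total keratinocytes, missed the threshold (adjusted p = 0.0666 with limma), and passed it on leaving out the cKO bulge array of set 1 (0.0427), the cKO total keratinocyte array of set 1 (0.0166) or the Het HG array of set 2 (0.0438). A second bright probe set of Lor gave -1.89 for this comparison, and a dim one gave 0.14.

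S100a14 gave 10.71, 11.49, 11.98 and 10.50 on HG arrays, 11.33, 10.54, 11.75 and 10.64 on bulge arrays and 11.99, 12.24, 13.18 and 13.50 on total keratinocyte arrays. The total keratinocyte arrays were above both stem cell fractions, by 0.01 at the closest point. The gene was 2.95-fold lower in HG (-1.56, SE 0.32, adjusted p = 0.0125 with limma) and 3.16-fold lower in bulge (-1.66, SE 0.32, adjusted p = 0.0025 with limma). Without the cKO HG array of set 2 the HG difference was -1.28 with an adjusted p of 0.0574.

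S100a4, a calcium-binding protein best known from fibroblasts and migrating cells, differed most between HG and bulge. Its bulge arrays gave 15.14, 15.32, 15.81 and 15.27, its HG arrays 11.79, 11.26, 9.96 and 11.56, and its total keratinocyte arrays 12.34, 12.59, 12.52 and 13.11. The 3 fractions did not overlap. S100a4 was 18.9-fold lower in HG than in bulge (-4.24, SE 0.32, adjusted p = 2.07e-06 with limma), with the same direction in 4 of 4 pairs. Against total keratinocytes it was 6.73-fold higher in bulge (2.75, adjusted p = 6.78e-05) and 2.83-fold lower in HG (-1.50, adjusted p = 0.0138), and this HG call was lost with the cKO total keratinocyte array of set 2 left out (-1.39, adjusted p = 0.0600).

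S100a6 (calcyclin) gave 15.58, 15.88, 16.07 and 15.60 on bulge arrays, 13.94, 13.33, 13.42 and 13.84 on HG arrays and 13.67, 13.98, 14.19 and 14.22 on total keratinocyte arrays. Bulge stood above both other fractions, which overlapped with each other. It was 3.41-fold higher in bulge than in total keratinocytes (1.77, SE 0.20, adjusted p = 6.05e-05 with limma) and 4.44-fold lower in HG than in bulge (-2.15, SE 0.20, adjusted p = 1.17e-05 with limma).

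S100a1, known from muscle calcium handling, gave 11.28, 11.01, 12.55 and 11.17 on bulge arrays against 9.22, 9.86, 10.17 and 10.12 on total keratinocyte arrays and a lowest, median and highest of 8.98, 9.99 and 10.75 on HG arrays. Bulge was again the highest, 3.16-fold above total keratinocytes (1.66, SE 0.25, adjusted p = 4.62e-04 with limma) and with HG 2.99-fold below it (-1.58, adjusted p = 6.99e-04). A second probe set of the gene gave 1.74 for bulge against total keratinocytes. S100a10, the partner of annexin A2, differed less: 15.59, 16.11, 15.70 and 15.61 on bulge arrays against 14.61, 15.02, 14.72 and 14.85 on total keratinocyte arrays, a 1.93-fold difference (0.95, SE 0.22, adjusted p = 0.0080 with limma). Its HG values of 15.41, 15.25, 14.18 and 15.39 were below bulge in 4 of 4 pairs (-0.70, adjusted p = 0.0394 with limma), a call kept in 9 of 20 alternatives. Its other probe sets gave -1.15 and -1.11 for HG against bulge.

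S100a5 was not tested, but its floor values followed the fractions. It read 6.29, 6.12, 6.97 and 6.30 on bulge arrays, was at the floor on all 4 HG arrays, and gave 4.37, 5.45, 4.37 and 5.11 on total keratinocyte arrays. S100a13 and S100a16 differed little, by -0.17 and -0.11 in bulge and by -0.55 and -0.60 in HG against total keratinocytes, and passed no test between fractions.

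**Figure D2:**
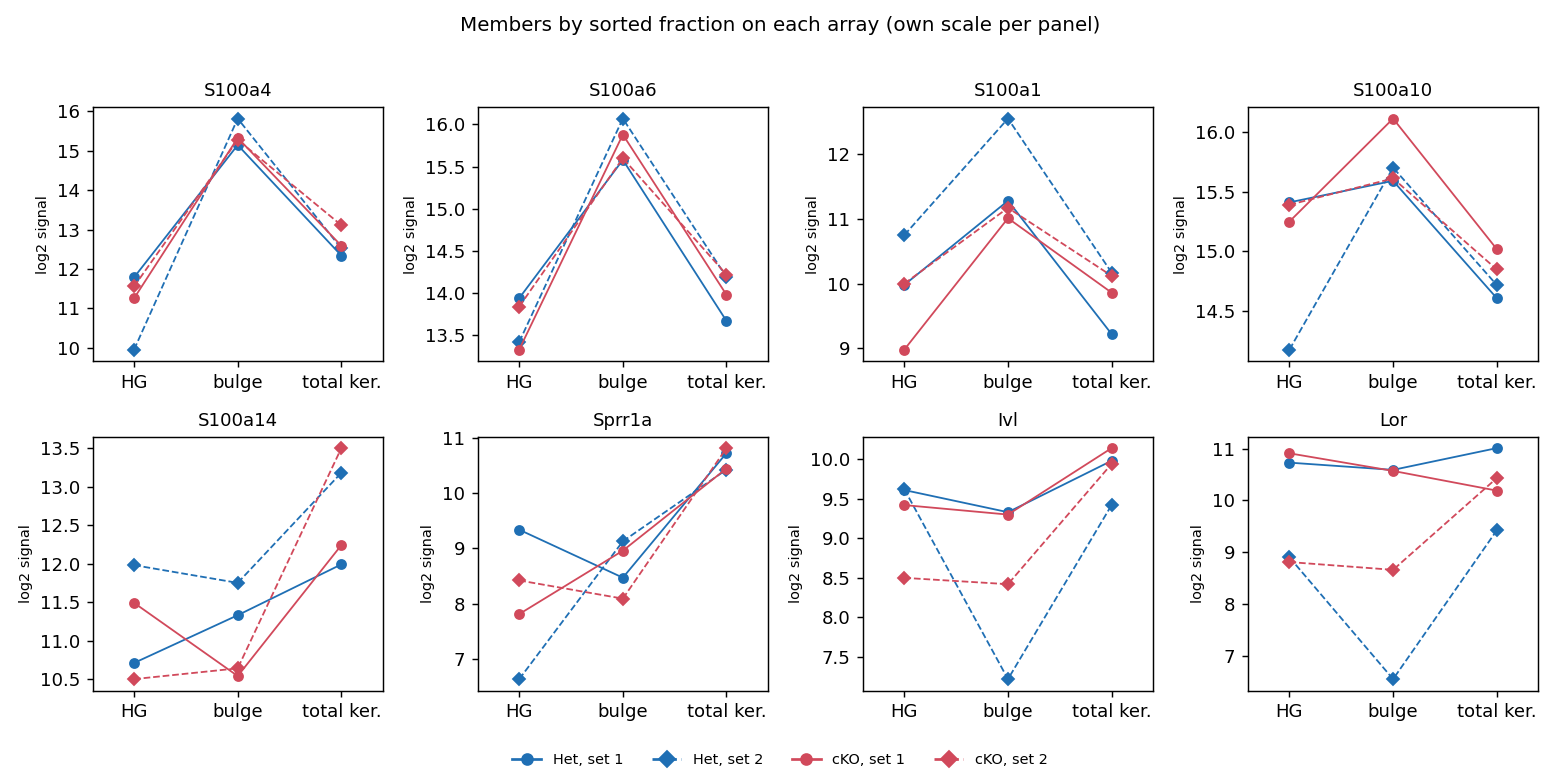
Log2 signal (vertical axis, own scale in each panel) of 8 members in HG, bulge and total keratinocytes, with 1 line for each genotype and set, 4 lines in each panel. S100a4, S100a6, S100a1 and S100a10 peak in bulge in every line, Sprr1a and S100a14 are highest in total keratinocytes in every line, and Lor in HG and bulge separates by set and not by fraction.

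Markers of other cells also differed between the fractions. All 8 fibroblast markers were higher in bulge than in total keratinocytes (median 2.59) and lower in HG than in bulge (median -3.22). Their mean log2 signal lay between 13.08 and 14.16 on bulge arrays, 10.02 and 10.92 on HG arrays and 10.26 and 11.57 on total keratinocyte arrays, and none was at the floor on all arrays. Endothelial markers were higher in bulge than in total keratinocytes in 3 of 3 tested genes (median 1.49), with a mean of all 5 genes of 6.10 to 6.48 on bulge and 4.78 to 5.83 on total keratinocyte arrays. Infundibulum and isthmus markers, from the upper follicle next to the epidermis, were lower than in total keratinocytes in 4 of 6 genes in HG (median -1.08) and in 2 of 6 in bulge (median -0.76). Their mean was 11.97 to 12.59 on total keratinocyte arrays, 10.07 to 11.92 on HG arrays and 11.18 to 11.80 on bulge arrays. Melanocyte markers were higher in HG than in total keratinocytes in 6 of 7 genes (median 2.55). The part of these cells in the differences of S100 genes and Sprr1a was not tested. In such bulk samples, fewer cells of a type and less RNA per cell cannot be told apart.

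Among the remaining lists, all 7 bulge markers were higher in bulge than in total keratinocytes, and 4 of 5 hair germ markers were higher in HG than in bulge. Krt6a, of wounded and inner bulge keratinocytes, was higher in bulge (3.93) and lower in HG (-1.52) than in total keratinocytes. In HG against total keratinocytes, 2 of 6 sebaceous gland genes and the Schwann cell gene Mbp (-1.77) were lower. In bulge, Mbp (-1.39), 1 of 5 basal keratinocyte and 1 of 6 macrophage and Langerhans cell genes were lower, and 1 sebaceous gland gene was higher. No T cell, skeletal muscle or neutrophil gene passed in either comparison with total keratinocytes, and no erythroid gene passed the filter.

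Barrier genes outside the complex gave more calls against total keratinocytes than the members did. Of 32 tested genes of cornified envelope assembly, desmosomes and barrier lipids, 22 were lower and none higher in HG (median -1.33), and 20 were lower and 1 higher in bulge (median -1.19). Keratin 1 (Krt1), the keratin of the first suprabasal cells, was lower in HG by -2.75 and in bulge by -2.95, and the ceramidase gene Acer1 by -2.66 and -2.61. The exception was Tgm5, a transglutaminase, higher in bulge (3.22, adjusted p = 3.95e-06 with limma). HG against bulge gave 4 higher and 5 lower of these 32, among them Sbsn (-2.25) and Dmkn (-2.24) lower and Tgm3 (2.21) higher in HG. Whether members and barrier genes differ in their share of calls was not tested.

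Regulators known to act on the complex, mostly transcription factors, were mixed. Of 18 tested, 9 were lower and 1 higher in HG than in total keratinocytes, and 8 were lower and 1 higher in bulge. Grhl3, a grainyhead factor needed for barrier formation, differed by -1.79 in HG and -2.61 in bulge. Zfp750, a factor of terminal differentiation, differed by -1.41 and -1.58, and Gata3 by -1.08 and -2.12. Prdm1 was the regulator that was higher in HG (1.34, adjusted p = 0.0368 with limma), and Maf the one higher in bulge (0.95, adjusted p = 0.0068 with limma). Between HG and bulge 4 regulators were higher in HG and 2 lower, with Satb1, a chromatin organizer of the complex, at 1.16 and Klf4 at -0.86.

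The second comparison was of set 2 with set 1, between which the Het stem cells pass from the quiescent to the activated label. Over all 12 arrays, 7 of 24 tested members passed the test (limma, Benjamini-Hochberg adjustment over all genes tested), where 5.10% of 12749 genes did. Lor, Crct1, Lce1m and Flg fell, by 3.39-fold to 4.17-fold, and S100a3, Tchh and S100a1 rose. The median of the tested members was -0.24, against -0.08 for all genes. All 7 calls were lost when either Het bulge array was left out, which removes that pair, with 0.474% and 0.554% of all genes called. They were also lost without either Het total keratinocyte array (0.0864% and 0.0787% of all genes) and with eBayes without a trend (0.275%). Without either cKO HG array 1 was kept, Tchh, with 1.04% of all genes called. Without either cKO bulge array 3 were kept, Tchh, S100a3 and S100a1 (4.4% and 4.19% of all genes). Without either cKO total keratinocyte array 5 were kept, the 4 that fell and S100a1 (1.32% and 1.33% of all genes). Without either Het HG array 5 of the 7 were kept, with 5.14% and 5.16% of all genes called. There Crct1 and Flg were lost and Ivl was gained (-0.94).

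Loricrin separated the sets in the stem cell fractions. On HG and bulge arrays of set 1 it gave 10.73 and 10.59 in Het and 10.91 and 10.57 in cKO. In set 2 it gave 8.90 and 6.55 in Het and 8.81 and 8.66 in cKO. Every stem cell array of set 2 was below every stem cell array of set 1 (means 8.23 ± 1.12 and 10.70 ± 0.16, SD, n = 4 each). In total keratinocytes it gave 11.01 and then 9.42 in Het, and 10.19 and then 10.43 in cKO, so the last of the 6 pairs went the other way. The fit over 12 arrays gave -1.87 (SE 0.39, adjusted p = 0.0331 with limma), and a second bright probe set of the gene gave -1.93.

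Crct1 (a cysteine-rich protein of the complex) gave 9.93, 10.05, 9.84 and 9.47 on the HG and bulge arrays of set 1 (Het, then cKO) and 6.97, 6.37, 8.10 and 7.57 in set 2. Total keratinocytes gave 9.49 and then 8.13 in Het, and 9.0 and then 9.50 in cKO. The stem cell values did not overlap between sets, and the fit gave -1.86 (SE 0.42, adjusted p = 0.0379 with limma). Lce1m, its neighbour in gene order among the members, gave 8.86, 8.82, 8.34 and 7.39 in set 1 stem cells and 6.12, 5.19, 5.40 and 5.25 in set 2, with 7.13, 5.78, 7.12 and 7.55 in total keratinocytes (Het of both sets, then cKO). Its stem cell values did not overlap either, and the fit gave -2.06 (SE 0.45, adjusted p = 0.0354 with limma).

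Flg gave 7.18, 7.53, 7.22 and 6.65 on stem cell arrays of set 1, and in set 2 was at the floor on both Het arrays and at 5.23 and 5.18 on the cKO arrays. Total keratinocytes gave 7.79 and then 6.03 in Het, and 6.46 and then 7.08 in cKO. The fit, with the floor standing in for the Het stem cell arrays of set 2, gave -1.76 (SE 0.45, adjusted p = 0.0494 with limma), which is the closest of the 7 to the threshold and was kept in 2 of 21 alternatives.

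Of 22 members tested on the 8 stem cell arrays, Lor, Crct1, Lce1m and Flg were lower and S100a3 was higher with no overlap between the sets. Among the 12589 genes tested there, 4.23% did not overlap in either direction. On these 8 arrays Lce1m and Flg passed the signal filter through set 1 alone, where they are high. Their separation of the sets is thus described and not counted as support. A fit of these 8 arrays alone, added after the values were seen, called Crct1 (-2.57, adjusted p = 0.0420), Lce1m (-2.86, adjusted p = 0.0420) and Lor (-2.47, adjusted p = 0.0440), with 0.0953% of genes called. The same limit holds for this call of Lce1m. The 4 total keratinocyte arrays alone gave -0.43, -0.46 and -0.68 for these genes, none of them called. The difference between the stem cell and the total keratinocyte set effect, also added later, was -2.14 for Crct1, -2.40 for Lce1m and -1.79 for Lor, with an adjusted p of 1.00 for each. That test called 0 members and 0% of genes with limma, and 4 members and 413 genes had an unadjusted p under 0.05.

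**Figure D3:**
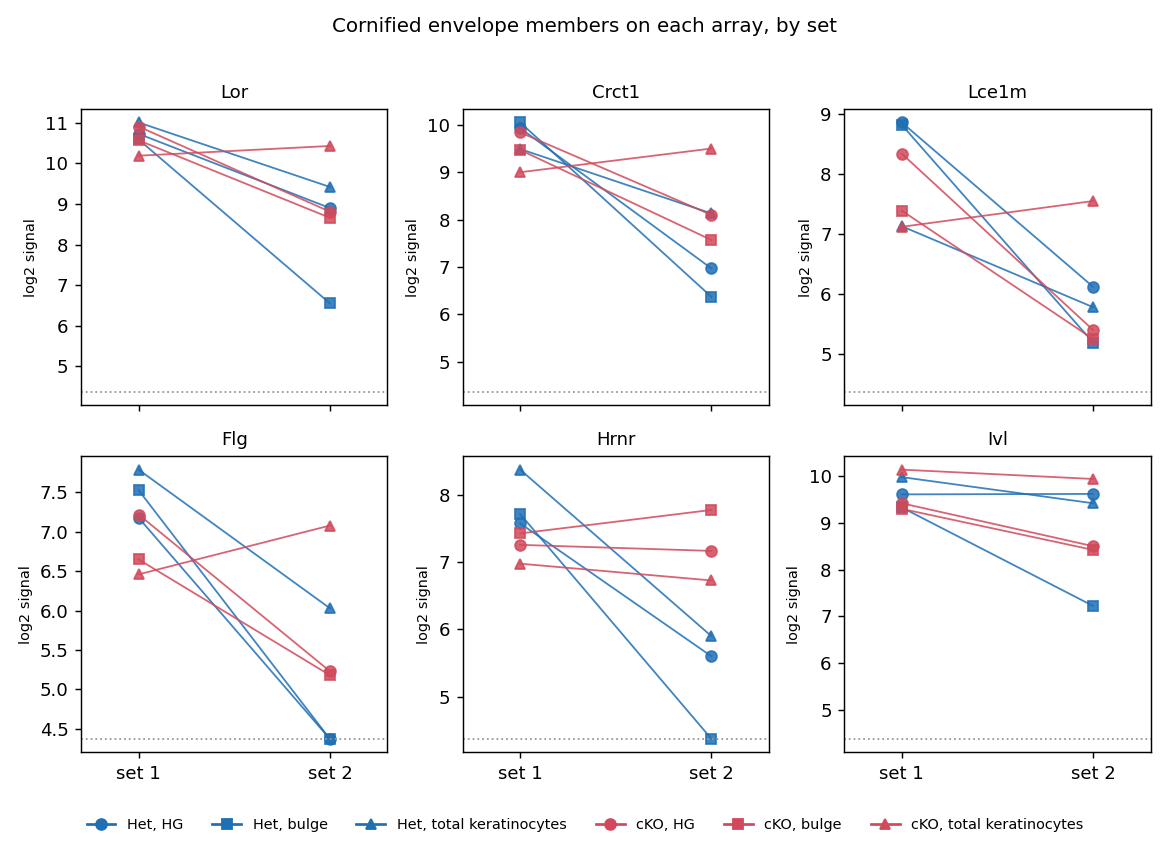
Log2 signal (vertical axis, own scale in each panel) of 6 envelope members on each array in set 1 and set 2, with lines joining the same genotype and fraction and the dotted line at the floor of 4.37. In Lor, Crct1, Lce1m and Flg the 4 HG and bulge lines fall, the Het total keratinocyte line falls and the cKO total keratinocyte line does not, whereas in Hrnr the 3 Het lines fall and the cKO lines stay within 0.35.

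The other envelope members did not pass the set test. Hrnr, encoding hornerin, a filaggrin-like protein, gave 7.58, 7.72 and 8.38 in Het HG, bulge and total keratinocytes of set 1, and 5.60, 4.37 and 5.90 in set 2. In cKO it gave 7.26, 7.43 and 6.98, and then 7.17, 7.78 and 6.73. Each Het pair was lower in set 2 by about 2 or more log2 units and each cKO pair was nearly level, and the fit over both genotypes gave -1.30. Ivl and Sprr1a differed by -0.78 and -0.37. Of the other tested Lce genes, Lce1c (-1.0), Lce1a2 (-0.96) and Lce1a1 (-0.30) had lower and Lce3b (0.61) and Lce3c (0.57) higher estimates, none past the threshold.

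Some genes of other lists changed with the set, beside 5.10% of all genes. The only other tested gene of the locus from the companion list, Kprp, a keratinocyte proline-rich protein, fell by 1.34 on the log2 scale (adjusted p = 0.0212 with limma). Of the 32 barrier genes outside the complex, 1 fell and none rose (median -0.58), namely Ly6g6c (-1.30), and of 18 regulators, Satb1 (-0.99) and Fosl2 (-0.53) fell. Infundibulum and isthmus markers had a mean between 11.29 and 12.59 in set 1 and between 10.07 and 12.19 in set 2, and 1 of 6 fell. Macrophage and Langerhans cell markers had 2 of 6 lower, with a mean of 8.50 to 9.26 in set 1 and 7.01 to 8.99 in set 2, and fibroblast markers 4 of 8 lower (median -0.81). Dissociation stress genes had a mean of 11.79 to 12.46 in set 1, and in set 2 ran from 10.70 on the Het HG array to 13.32 on the Het bulge array and 13.97 on the cKO total keratinocyte array. Far2 of the sebaceous gland list fell (-1.41, adjusted p = 0.0330 with limma), and no gene of the basal keratinocyte, bulge, hair germ, wound-activated keratinocyte, neutrophil, T cell, melanocyte, Schwann cell, endothelial or skeletal muscle lists passed. The mean of the basal keratinocyte markers was 12.53 on the Het HG array of set 2 and 13.68 to 14.21 on the other arrays. With the Het bulge and cKO total keratinocyte arrays of set 2 left out, 1 member was called, Lor, where 0.0397% of 12600 genes were called. The part of these cells in the set difference was not tested. The 3′ minus 5′ actin signal, a sign of RNA quality, was 1.99 to 2.99 in set 1 and 1.47 to 2.68 in set 2.

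**Figure D4:**
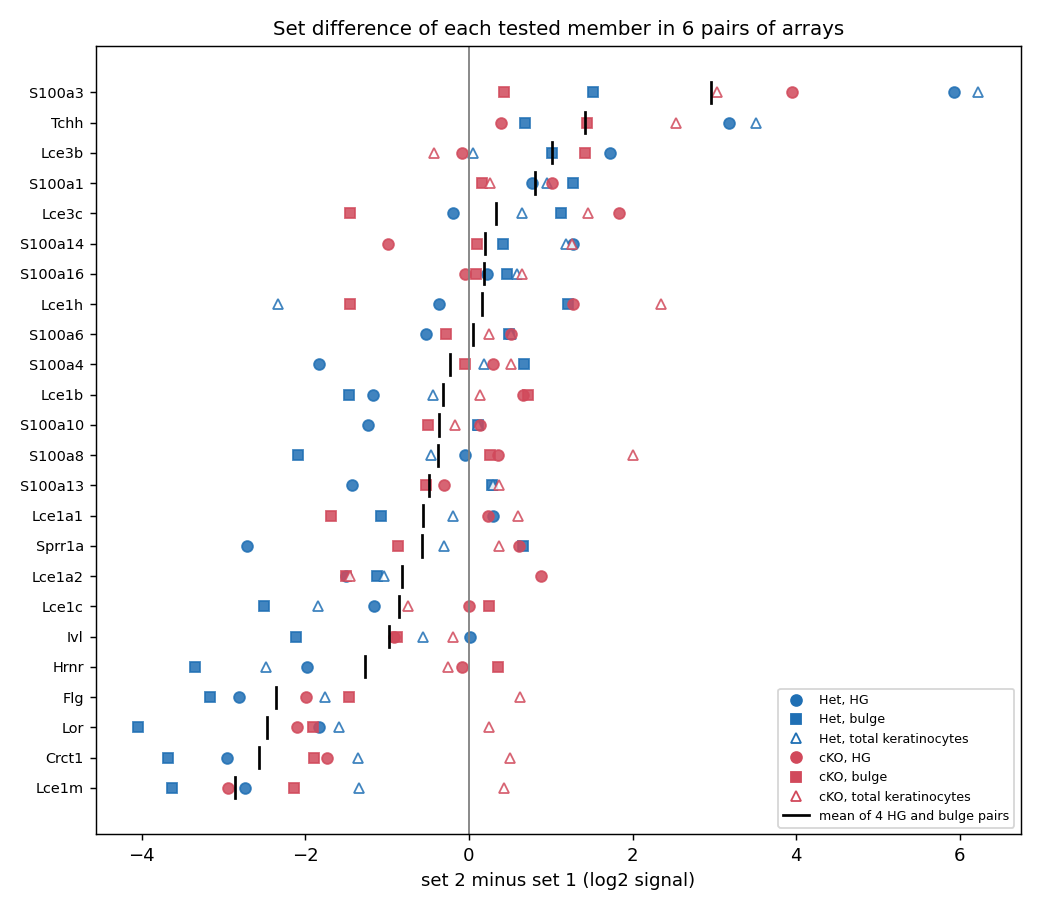
Set 2 minus set 1 in log2 signal (horizontal axis) for the 24 tested members, with 1 point for each of 6 pairs of arrays and a black bar at the mean of the 4 HG and bulge pairs. Lce1m, Crct1, Lor and Flg stand at the bottom with all filled points below 0, and S100a3 and Tchh stand at the top with all 6 points above 0.

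Tchh and S100a3, the members made in the hair itself, went the other way. Tchh gave 7.67, 7.31 and 7.47 in Het HG, bulge and total keratinocytes of set 1 and 10.85, 7.99 and 10.98 in set 2. In cKO it gave 7.11, 6.97 and 7.04, and then 7.50, 8.41 and 9.57. It was higher in set 2 in 6 of 6 pairs, by 0.39 to 3.51, with the Het HG and both total keratinocyte arrays the highest. The fit gave a 3.89-fold rise (1.96, SE 0.39, adjusted p = 0.0309 with limma).

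S100a3, a protein of the hair cuticle, gave 5.73, 7.41 and 4.37 in Het HG, bulge and total keratinocytes of set 1 and 11.66, 8.93 and 10.60 in set 2. In cKO it gave 4.37, 7.73 and 4.93, and then 8.32, 8.16 and 7.96. All set 2 arrays were above all set 1 arrays. The fitted rise was 11.4-fold (3.51, SE 0.67, adjusted p = 0.0273 with limma), an understatement in the 2 pairs whose set 1 array was at the floor. S100a1 rose less, by 1.67-fold (0.74, adjusted p = 0.0342), in 6 of 6 pairs. In the 4 total keratinocyte arrays alone, where 1.96% of genes were called, Tchh (3.02, adjusted p = 0.0099 with limma), S100a3 (4.62, adjusted p = 0.0311) and S100a14 (1.22, adjusted p = 0.0200) rose.

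Markers of the growing hair rose beside these genes. Of 7 tested inner root sheath genes, 5 rose in set 2 and none fell (median 3.21), among them the keratin genes Krt25 (5.76, adjusted p = 2.73e-04 with limma) and Krt71 (3.21, adjusted p = 0.0050). Their mean was 5.01 to 5.86 on set 1 arrays, and in set 2 it was 10.27 in Het HG, 9.52 in Het total keratinocytes and 6.63 to 7.71 on the other 4 arrays. Of 5 hair shaft genes, 1 rose, Krt35 (3.93, adjusted p = 0.0200), and their mean was 5.96 to 7.59 in set 1 and 6.80 to 11.47 in set 2. The part of such cells in the rise of Tchh and S100a3 was not tested.

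**Figure D5:**
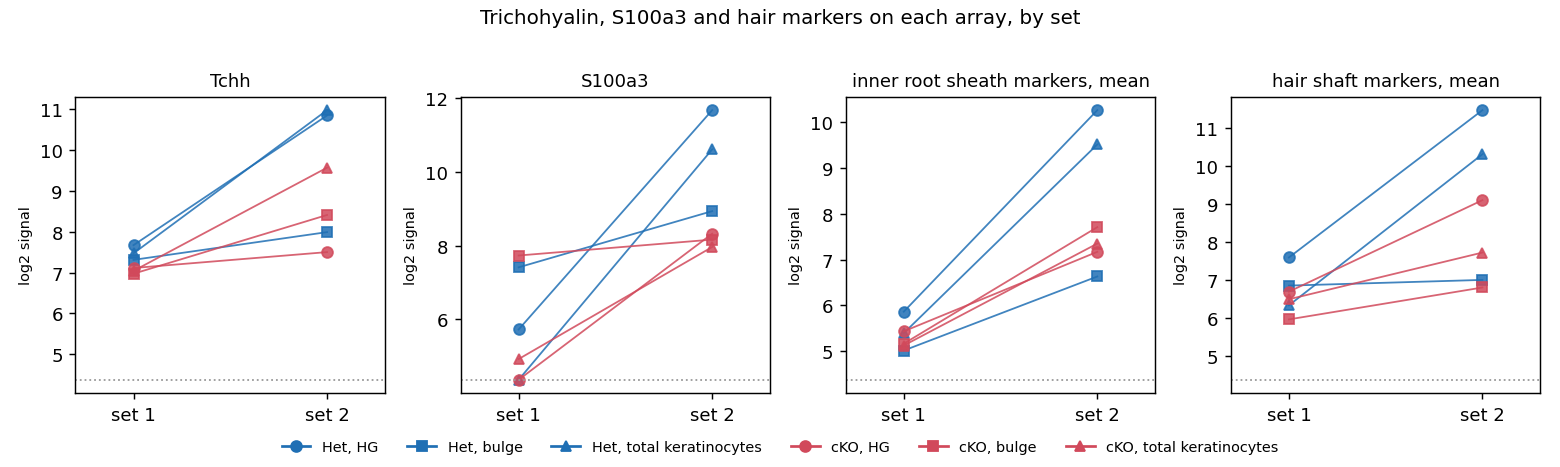
Log2 signal (vertical axis, own scale in each panel) of Tchh, of S100a3 and of the mean of the inner root sheath and hair shaft markers in set 1 and set 2, with lines joining the same genotype and fraction. All lines rise, and the Het HG and Het total keratinocyte arrays of set 2 are the highest in every panel.

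Within Het stem cells, set 2 against set 1 called 3 of 22 tested members, all lower, where 0.707% of 12589 genes were called. HG and bulge are the observations here, and their mean difference is a term of the fit. The spread is therefore how far the HG minus bulge difference varies among the conditions of genotype and set. Crct1 was 9.99-fold lower (-3.32, SE 0.31, adjusted p = 0.0051 with limma), Lce1m 9.13-fold (-3.19, SE 0.48, adjusted p = 0.0287) and Lor 7.62-fold (-2.93, SE 0.49, adjusted p = 0.0379). In every fit of the stem cell arrays Lce1m and Flg passed the signal filter through set 1 alone. Flg, at the floor on both activated arrays, differed by -2.98 (adjusted p = 0.0771) and Hrnr, at the floor on the activated bulge array, by -2.66 (adjusted p = 0.0763), neither past the threshold and both limited by the floor. Leaving out either quiescent Het array leaves 1 array in that group, and the calls of members and of all other genes alike were lost. Leaving out any cKO array kept 1 member, Crct1, with 0.146% to 0.241% of all genes called. Leaving out the activated HG array gave 7 with 2.11% of all genes called, and leaving out the activated bulge array gave 12 with 20.5% of all genes called, so the second count rose with that of the whole array.

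Barrier genes outside the complex fell with them in 4 of 31 cases (median -1.14), and none rose. They were Elovl4, for very long chain fatty acids (-2.65, adjusted p = 0.0051 with limma), Ly6g6c (-2.16), Krt77 (-2.09) and Acer1 (-1.94).

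Within cKO stem cells, labelled aberrantly quiescent in set 2, the same comparison called 0 members and 0% of genes with limma, while 4 members and 777 genes had an unadjusted p under 0.05. The estimates were -2.54 for Lce1m (95% interval -3.63 to -1.45), -2.01 for Lor (-3.12 to -0.89), -1.83 for Crct1 (-2.53 to -1.12) and -1.73 for Flg (-3.15 to -0.32). Hrnr was at 0.13 (-1.12 to 1.38). With either activated Het array left out, 3 members and 92 genes were called, Lor and Crct1 among them. In the first 4 genes every cKO stem cell pair was lower in set 2, as in Het.

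The difference between the genotypes in this set effect was tested directly. It called 0 members, where 0.00794% of genes were called, and 3 members had an unadjusted p under 0.05. The largest estimate was that of Hrnr, 2.79 (SE 0.78, adjusted p = 0.63 with limma), followed by Lce1b at 2.01. For Crct1 it was 1.49 (95% interval 0.49 to 2.49), for Lor 0.93 (-0.65 to 2.50) and for Lce1m 0.64 (-0.90 to 2.19), so of these 3 intervals, which are not adjusted for the number of genes, that of Crct1 alone lay above 0, and after adjustment none passed. With the activated HG array left out 3 members were called, Lor (2.00), Hrnr (3.55) and S100a8 (2.59), with 0.614% of all genes. With the activated bulge array left out 3 members were called, with 7.98% of all genes.

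The last comparison was of TßRII-cKO with TßRII-Het over all fractions and sets. No member and 0% of genes passed the test with limma, and 3 members and 1099 genes had an unadjusted p under 0.05. The median of the 24 members was 0.00, with 12 above and 12 below 0. The largest estimates were -1.20 for S100a3 (95% interval -2.19 to -0.21, adjusted p = 0.55), 0.99 for Lce3b (0.24 to 1.73, adjusted p = 0.52) and -0.94 for Tchh (-1.78 to -0.11, adjusted p = 0.57). Lor was at 0.39 (-0.26 to 1.04) and Flg at 0.09 (-0.73 to 0.91).

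S100a8 and S100a9, whose proteins pair as calprotectin in neutrophils and stressed keratinocytes, had no call in the comparisons as fitted on all their arrays. S100a8 gave 9.21, 9.27 and 8.65 in Het HG, bulge and total keratinocytes of set 1 and 9.16, 7.18 and 8.19 in set 2. In cKO it gave 7.21, 7.91 and 7.47, and then 7.56, 8.17 and 9.47, and the genotypes overlapped (-0.65, 95% interval -1.53 to 0.23). With the activated HG array left out, S100a8 was lower in set 2 in Het stem cells (-2.28, adjusted p = 0.0105 with limma), a difference that then rests on the bulge arrays. S100a9 passed the pooled median on 1 array, Het bulge of set 1 at 6.42, and was not tested. Neutrophil markers had a mean between 4.73 and 5.62 on all arrays, close to the floor, with Camp at 4.37 to 6.24.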

How the data were processed

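The 12 arrays hold 45101 probe sets and were hybridized with biotin-labelled cRNA from 2 µg of total RNA, per the labels' protocols. The deposited values are MAS5 signal, a linear intensity that the authors scaled on each array to a trimmed mean of 500, with 2% of probe sets off each end, and the values bear this out. The tool is that of the submitters' processing notes, without a version. No further normalization was added.

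Of the probe sets, 64 controls were left out, 34945 had 1 symbol, 932 several and 9160 none. Each gene took the probe set of highest mean log2 signal. Models were fitted with limma 3.58.1 (R 4.3.3), using a trended eBayes and two-sided tests adjusted by Benjamini-Hochberg over all genes tested at a threshold of 0.05, and were tested on simulated data. Fractions were compared with genotype by set as a block, genotypes with fraction by set as a block, and sets with fraction by genotype as a block, on 12 arrays. The effects of set within a genotype and their interaction came from a fit of the 8 stem cell arrays that includes fraction. The set numbers, from the labels, pair the genotypes: the set 2 minus set 1 differences of Het and cKO correlated across 12749 genes with r = 0.21 in HG, 0.13 in bulge and 0.40 in total keratinocytes. How precise a value is depends on how few arrays each group has.

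Members and lists were chosen with earlier results of these data known. Lists were genes of the locus outside the rule, barrier genes, regulators, markers of keratinocyte compartments (basal, infundibulum and isthmus, inner root sheath, hair shaft, bulge, hair germ, wound-activated, sebaceous gland) and of neutrophils, macrophages and Langerhans cells, T cells, fibroblasts, melanocytes, Schwann cells, endothelium, skeletal muscle and erythroid cells, and dissociation stress genes. The rule for names was the structural members and S100a8 and S100a9 on every array, the called members of each comparison, and up to 4 called genes of a list, and S100a5, S100a13, S100a16 and the other Lce genes were named after their values were seen. Promoter sequences, for 38 of 43 members, are RefSeq's. Alternatives changed the floor (none, or the pooled median), the filter (none, or 474, the pooled 75th percentile), the normalization (quantile), the probe sets (their mean), the trend of eBayes, the block and the arrays used, each of which was also left out in turn.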

Additional observations from a re-analysis of the deposited data

Results flagged for a closer look

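In 2 of 22 tested members every Het stem cell pair moved one way between the sets and every cKO pair the other. The share of all genes with this pattern was not computed, so the count is not a result about the members. For Lce1b the set 2 minus set 1 difference was -1.18 in HG and -1.47 in bulge of Het, and 0.65 and 0.72 in cKO, an interaction of 2.01 that did not pass the test (adjusted p = 0.69 with limma). S100a8 differed by -0.05 (HG) and -2.08 (bulge) in Het, and by 0.35 and 0.26 in cKO, which is an interaction of 1.37 (adjusted p = 0.75 with limma), and of 2.59 (adjusted p = 0.0380) without the Het HG array of set 2. The probe set of S100a8 is of a kind that can bind related transcripts. No group had enough arrays for a check of single outlying arrays.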

How the results depend on the processing

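Counts of called members between bulge and total keratinocytes and between HG and bulge stayed within 1.5 times their value under each alternative run, with 6 to 8 and 3 to 4 members on leaving out single arrays. The shares of all genes called on leaving out single arrays were 17.8% to 29.4% and 16.8% to 25.3%. HG against total keratinocytes called 2 to 4 on leaving out single arrays, with 3.34% to 15.4% of all genes called. Ivl was gained there once the activated Het HG array was dropped. With no filter that comparison called 0 members, where 1.91% of all genes were called, against 10.8% in the main setting. The set comparison depended on the settings: it called 0 members with a floor at the pooled median, 0 with no filter, 1 with the mean of all probe sets and 0 with eBayes without a trend, 1 without the Het bulge and cKO total keratinocyte arrays of set 2, 3 with only the 8 HG and bulge arrays, 3 with only the 4 total keratinocyte arrays, and 0 to 6 on leaving out single arrays. Over all genes it called 650 in the main setting, 678 after quantile normalization, 35 with eBayes without a trend and 0 with no filter. The share of all genes called was 2.33% with the floor at the pooled median and 1.2% with the mean of all probe sets. It was 0.0397% without the Het bulge and cKO total keratinocyte arrays of set 2, and 0.0787% to 5.16% on leaving out single arrays. The set effect in Het stem cells called 0 members with no filter, 0 with eBayes without a trend and 0 to 12 without single arrays, that in cKO stem cells 0 to 3 and the interaction 0 to 3. Genotype called 0 members under each alternative, with no replicate block 0 as well, so the pairing changed no call. No named result reversed while called. The cause of these dependences was not tested. Each stem cell group is 1 array. The stem cell fits assume that the HG minus bulge difference varies among conditions only as replicates would.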

Other observations

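Some members of the Sprr2 and S100 families could be read only through probe sets that match several symbols, and so lie outside the comparisons. A probe set shared by Sprr2a1, Sprr2a2 and Sprr2a3 gave 9.91, 8.79 and 9.71 in Het HG, bulge and total keratinocytes of set 1 and 7.26, 9.10 and 9.50 in set 2. In cKO it gave 10.56, 9.04 and 10.13, and then 10.09, 8.11 and 10.58. The Het HG array of set 2 was the lowest of the 12, as it was for Sprr1a (6.63). A second probe set, shared by Sprr2a1 and Sprr2a2, ran from 4.37 on the cKO bulge array of set 2 to 10.16 on the cKO total keratinocyte array of set 2. Another probe set for the same pair of symbols read 4.37 to 6.30 on all arrays. A probe set shared by S100a11, S100a11-ps and Gm12854 gave 13.83 on the Het HG array of set 2 and 14.87 to 15.51 on the others.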
